A study of Mus musculus with 9 samples.

Results

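In heart RNA-seq of 9 mice, 5 genes with roles in thyroid hormone uptake, activation and response were followed. They were chosen by gene symbol from the 13890 genes with counts and are the transporter gene Slc16a10, the deiodinase gene Dio2, the receptor genes Thra and Thrb, and the corepressor gene Hr. All 5 passed the filter on low counts, as did 13364 genes in all. The study asked whether ACVR2B/Fc, a soluble decoy receptor that captures activins, myostatin and related ligands, changes the heart of mice with colorectal cancer cells seeded to the liver. All animals were male NSG mice, a strain without T, B and natural killer cells that accepts human tumour cells, and were 8 weeks old at surgery. The sham mice (S, animals 2, 3 and 5) had saline injected into the spleen and then saline each week. The mice labelled T (animals 11, 12 and 15) are described as having received human HCT116 colorectal cancer cells in the spleen and weekly saline. Those labelled A + T (animals 20, 21 and 22) are described as having received the same cells and weekly ACVR2B/Fc. Hearts were taken about 3 weeks after surgery and yielded 1 library per animal, with 3 libraries in each group.

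Thyroid hormone leaves the thyroid gland mostly as thyroxine (T4), which has to be converted to triiodothyronine (T3) to act on genes. Membrane carriers bring both forms into cells, and deiodinases inside the cell activate or inactivate them. Nuclear receptors encoded by Thra and Thrb sit on their target genes with retinoid X receptors, repress through corepressors when empty and activate through coactivators when T3 is bound. In the rodent heart this sets pacing, relaxation and the choice of myosin heavy chain, with T3 raising Myh6 and lowering Myh7.

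Total counts per library ranged from 12392222 to 19732471, and the highly abundant ribosomal transcript Rn45s took between 4.57% and 19.6% of them. Set beside the gene list that accompanies the study, which holds none of the 5 genes, T vs. S here followed the values given there for sham mice treated with ACVR2B/Fc and not those given for tumour hosts. Over 429 genes of that list, the Pearson r was 0.9999 with the former values and 0.28 with the latter. Directions below are therefore those of the libraries labelled T, whatever those animals received. Cardiomyocyte markers were high everywhere, at a summed level of 38542 to 49651 CPM (counts scaled to the same library total). Airway and lung markers (3 of 4 had counts) summed to 1278 CPM in A + T animal 22 and 104 CPM in T animal 12, against 0.497 to 2.38 CPM in the other 7 libraries, so results are also given without these animals where that moved them. Of 4 thyroid gland markers only Tg was among the 13890 genes with counts, at 2.30 to 6.24 CPM, and none of 4 thymus markers was. The 3 of 6 skeletal muscle markers found there summed to 1.37 to 3.63 CPM. The lowest total of any gene there was 20 counts, so a marker that is absent may still have had fewer counts than that.

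In the hearts labelled T, Slc16a10 and Hr were lower than in S, and Thra, Thrb and Dio2 did not pass the test. Slc16a10 fell by 40.0% and Hr by 47.4%, and all 3 values of each lay below all S values, as 21.5% of all genes tested did. Thus 2 of the 5 genes were called lower and none higher at an adjusted P-value under 0.05 (edgeR's quasi-likelihood test), where 11% of all genes tested were called lower and 21.2% in either direction. The median log2 fold change of the 5 was -0.74, against -0.0038 for all genes. The 5 genes were chosen with earlier results of these data known, so these shares describe them and are not a test.

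**Figure D1:**
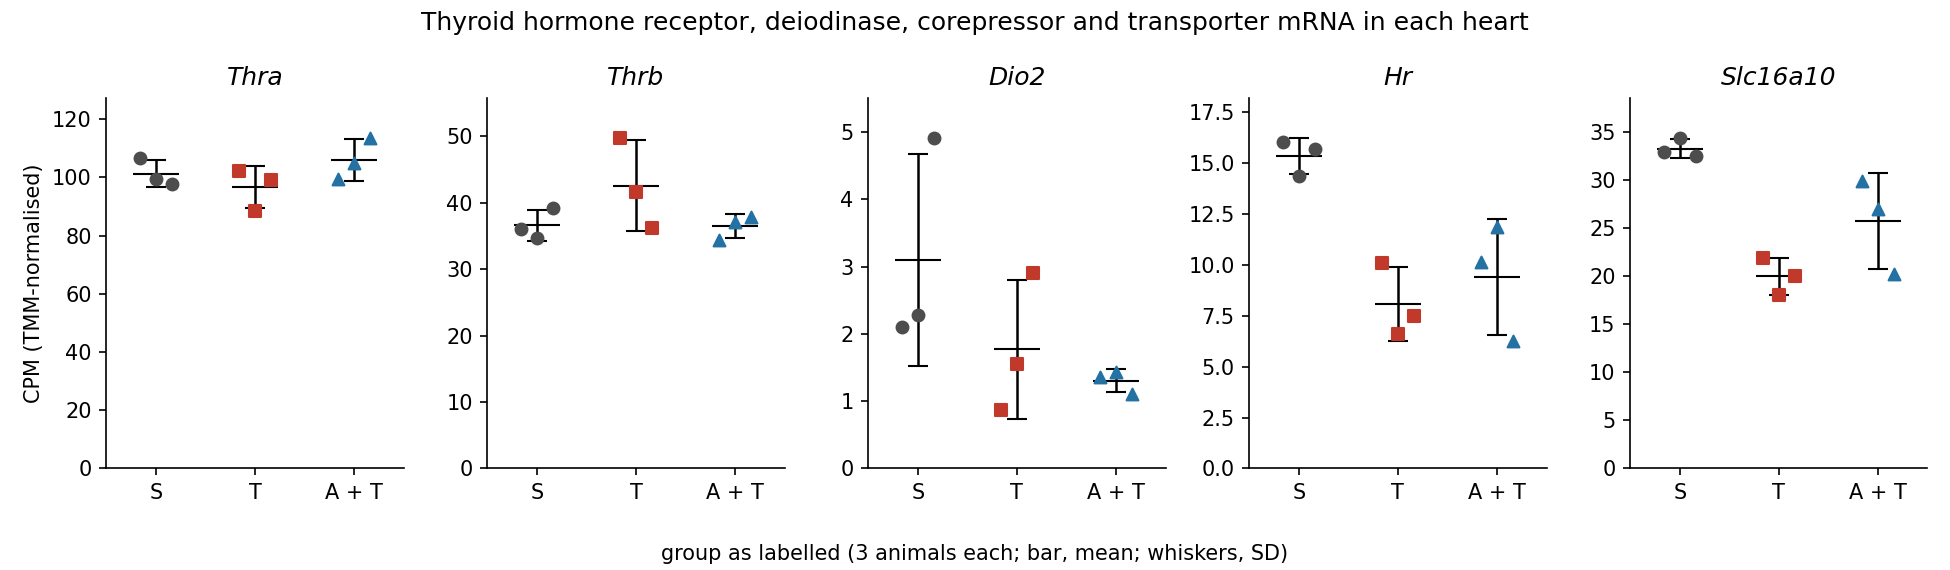
Level of each gene in CPM (TMM-normalised, linear axis from 0) in every heart, by labelled group; each point is 1 animal in the order of its number, the bar is the mean and the whiskers the SD (n = 3). All T values of Slc16a10 and Hr lie below all S values, whereas those of Thra, Thrb and Dio2 overlap.

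Slc16a10 encodes MCT10 (TAT1), a membrane carrier of T3 and of aromatic amino acids. The gene lies on the minus strand of chromosome 10 (GRCm38, 40033532 to 40142258). Its level was 32.9, 34.4 and 32.5 CPM in S animals 2, 3 and 5. In T animals 11, 12 and 15 it was 21.9, 18.1 and 20.01 CPM. In A + T animals 20, 21 and 22 it was 29.9, 27.1 and 20.2 CPM. The S values lay close together, every T value was below every S value, and A + T spread from the T range up to just under S, with animal 22 at its foot. T vs. S gave a log2 fold change of -0.74 ± 0.13 (SE; adjusted P = 0.00408), and the call held with each animal left out in turn (highest adjusted P = 0.0195, without S animal 3). A + T vs. T gave 0.36 ± 0.14 (adjusted P = 0.147) and A + T vs. S gave -0.37 ± 0.13 (adjusted P = 0.108). Without A + T animal 22, the library with the airway transcripts, A + T vs. T became 0.51 ± 0.10 (adjusted P = 0.0157), in a fit that called 7.53% of all genes, and A + T vs. S became -0.22 ± 0.10 (adjusted P = 0.21).

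Of the 5 genes, 3 (Slc16a10, Dio2 and Thrb) matched an entry in the RefSeq promoter table of GRCm38.p6. The bases upstream of every annotated start of Slc16a10, the gene with the smallest adjusted P-value here, are shown with those of Dio2, whose start region differs from it in kind. Both are printed 5′ to 3′ on the minus strand, for Slc16a10 from chr10:40142271-40142504 and for Dio2 from chr12:90739039-90739288, with capitals for matches to TGACGTCA (a cAMP response element) and TATAAA (a core promoter motif).
Slc16a10: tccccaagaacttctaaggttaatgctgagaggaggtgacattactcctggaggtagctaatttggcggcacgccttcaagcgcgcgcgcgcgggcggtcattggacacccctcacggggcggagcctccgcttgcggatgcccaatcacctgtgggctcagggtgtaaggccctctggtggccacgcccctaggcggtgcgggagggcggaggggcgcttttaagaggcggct
Dio2: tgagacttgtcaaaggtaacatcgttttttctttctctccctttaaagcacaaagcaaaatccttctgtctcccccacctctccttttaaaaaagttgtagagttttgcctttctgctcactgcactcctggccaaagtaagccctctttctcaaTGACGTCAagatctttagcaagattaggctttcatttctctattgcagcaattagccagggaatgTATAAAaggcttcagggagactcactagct
The Slc16a10 stretch was 64.1% G and C with 19 CpG dinucleotides in 234 bases, held neither motif in capitals, and also lacked AGGTCA, a motif that thyroid hormone receptors recognise. The Dio2 stretch was 41.6% G and C with 2 CpG dinucleotides in 250 bases. Its TGACGTCA began 95 bases and its TATAAA 30 bases before the RefSeq start of the gene (90739038), which lies 600 bases upstream of the GENCODE start given below, and it too lacked AGGTCA. Counting both strands of the 250 bases before the start, TGACGTCA occurred in 1.55%, TATAAA in 12.4% and AGGTCA in 14% of the 32851 promoters in the table. Of the 3 genes with an entry, only Thrb, which is not printed, held AGGTCA there, and it also held TATAAA. These matches describe the letters only, and no binding was measured in these hearts.

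Dio2 encodes the type 2 deiodinase, which makes T3 from T4 inside the cell. In GENCODE the gene lies on the minus strand of chromosome 12 (90724552 to 90738438). It had the fewest counts of the 5 genes, between 14 and 68 per library, so its values are the least precise. Its level was 2.10, 2.28 and 4.92 CPM in S animals 2, 3 and 5. In T animals 11, 12 and 15 it was 0.867, 1.54 and 2.90 CPM. In A + T animals 20, 21 and 22 it was 1.36, 1.44 and 1.11 CPM. T overlapped S through its animal 15, while all A + T values lay below all S values. None of the 3 comparisons passed: T vs. S gave -0.84 ± 0.44 (adjusted P = 0.202), A + T vs. T gave -0.39 ± 0.47 (adjusted P = 0.665) and A + T vs. S gave -1.23 ± 0.45 (adjusted P = 0.115). S animal 5 carried much of the difference: without it, T vs. S was -0.36 ± 0.42 (adjusted P = 0.613) and A + T vs. S was -0.75 ± 0.42 (adjusted P = 0.338). Without T animal 15, T vs. S was -1.32 ± 0.44 (adjusted P = 0.0657).

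Thra encodes the receptor TRα1 and its non-hormone-binding splice form TRα2, which counts per gene cannot separate. It lies on the plus strand of chromosome 11 (98740638 to 98769006), and its last 1075 bases overlap Nr1d1 on the opposite strand, with 263 bases exonic in both. Its level was 106.6, 99.6 and 97.6 CPM in S animals 2, 3 and 5. In T animals 11, 12 and 15 it was 102.1, 88.4 and 99.2 CPM. In A + T animals 20, 21 and 22 it was 99.4, 105.1 and 113.7 CPM. The 3 groups overlapped, and the coefficient of variation within a group was 4.64% to 7.48%. T vs. S gave -0.07 ± 0.08 (adjusted P = 0.599), A + T vs. T gave 0.14 ± 0.08 (adjusted P = 0.376) and A + T vs. S gave 0.07 ± 0.08 (adjusted P = 0.654). The strand-specific counts of its neighbour Nr1d1, the clock repressor REV-ERBα, rose in the hearts labelled T by 1.06 ± 0.12 on the log2 scale (adjusted P = 0.000405), from 56.7 ± 2.21 to 118.5 ± 19.4 CPM (SD, n = 3). Nr1d1 was also higher in A + T vs. S (0.66 ± 0.12, adjusted P = 0.0123), a call lost without S animal 2 (adjusted P = 0.0566). For Nr1d1, A + T vs. T gave -0.40 ± 0.12 (adjusted P = 0.0792).

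Thrb encodes the TRβ receptors and spans 377.8 kb of the plus strand of chromosome 14 (17660261 to 18038090). Its level was 36.0, 34.6 and 39.2 CPM in S animals 2, 3 and 5. In T animals 11, 12 and 15 it was 49.8, 41.6 and 36.2 CPM. In A + T animals 20, 21 and 22 it was 34.4, 37.2 and 37.9 CPM. T animals 11 and 12 were the highest of the 9, but animal 15 fell inside the S range, and S and A + T overlapped throughout. T vs. S gave 0.22 ± 0.11 (adjusted P = 0.185), A + T vs. T gave -0.23 ± 0.11 (adjusted P = 0.264) and A + T vs. S gave -0.0042 ± 0.11 (adjusted P = 0.986). T animal 11 carried much of the first difference, which was 0.09 ± 0.10 (adjusted P = 0.577) without it.

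Hr encodes the nuclear corepressor hairless, which binds thyroid hormone receptors and is itself a known T3-responsive gene in brain. It lies on the plus strand of chromosome 14 (70552212 to 70573548). Its level was 16.03, 14.4 and 15.7 CPM in S animals 2, 3 and 5. In T animals 11, 12 and 15 it was 10.1, 6.60 and 7.48 CPM. In A + T animals 20, 21 and 22 it was 10.1, 11.8 and 6.28 CPM. All 6 other hearts lay below all 3 S hearts, and A + T covered the whole T range, with animal 22 again the lowest. T vs. S gave -0.93 ± 0.22 (adjusted P = 0.0146). The call was lost without S animal 2 (-0.89 ± 0.26, adjusted P = 0.0512), in a fit that called 13.4% of all genes. It was also lost without T animal 12, the other library with airway transcripts (-0.79 ± 0.24, adjusted P = 0.0521), in a fit that called 16.6%. The fit of all 9 libraries called 21.2%. A + T vs. T gave 0.22 ± 0.23 (adjusted P = 0.613), and 0.44 ± 0.18 (adjusted P = 0.17) without A + T animal 22. A + T vs. S gave -0.71 ± 0.22, which missed the threshold with edgeR (adjusted P = 0.0716). It passed with DESeq2 (adjusted P = 0.0294) and limma-voom (adjusted P = 0.0453). Without A + T animal 22, edgeR gave -0.48 ± 0.17 (adjusted P = 0.124).

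In A + T vs. T none of the 5 genes passed (edgeR's quasi-likelihood test), where 5.88% of all genes did; 1 had an unadjusted P-value under 0.05, against 22.4% of all genes, and DESeq2 and limma-voom also called 0. In A + T vs. S none passed either, where 8.31% of all genes did. There, 3 (Slc16a10, Dio2 and Hr) had an unadjusted P-value under 0.05, against 26.1% of all genes, and the same 3 lay wholly below S, as 16.5% of all genes did. DESeq2 and limma-voom each called 1, Hr. At an unadjusted P-value under 0.05 with a fold change of at least 1.5, 2 passed (Hr and Dio2), against 8.91% of all genes. These 2 comparisons share their libraries with T vs. S and are not independent of it.

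**Figure D2:**
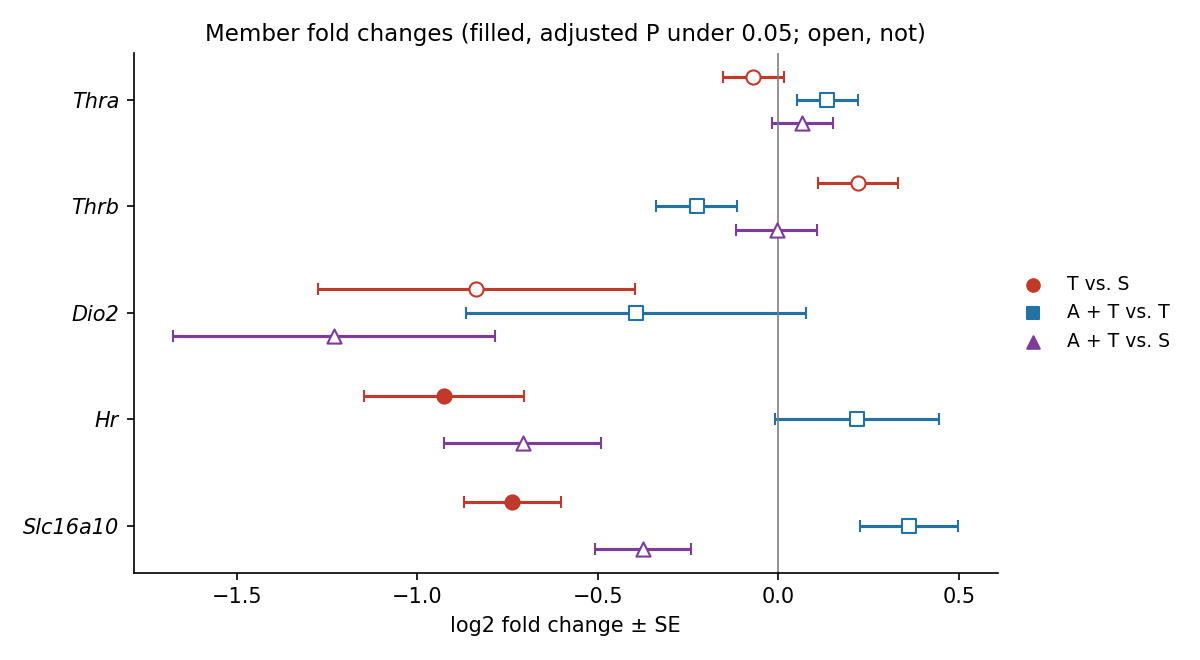
Log2 fold change of each gene in the 3 comparisons, marked by symbol and colour, with bars for the SE from edgeR's quasi-likelihood fit of all 9 libraries; filled symbols have an adjusted P-value under 0.05. Only Slc16a10 (-0.74) and Hr (-0.93) in T vs. S are filled, and Dio2 has the widest bars.

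Levels of different genes were compared on the deposited log2 scale. It differs from log2 CPM by a constant per gene, read here as a length scaling that the sources used here do not describe. The constant of Thra corresponds to 2.26 kb, against 4614 exonic bases in GENCODE, and that of Thrb to 6.57 kb, against 7403. In all 9 libraries the order was Thra, Thrb, Slc16a10, Hr, Dio2. In S the mean length-scaled log2 level was 5.49 ± 0.07 for Thra, 2.48 ± 0.09 for Thrb, 2.34 ± 0.04 for Slc16a10, 1.49 ± 0.08 for Hr and -0.96 ± 0.65 for Dio2 (SD, n = 3). Neighbours in this order were apart by more than 2 times the larger SD in each group, except Thrb and Slc16a10 in S (difference 0.13) and in A + T (difference 0.52). In the hearts labelled T, where Slc16a10 was lower, that same pair was apart by 1.08 on the log2 scale. With GENCODE exonic lengths, the order was the same in 8 of the 9 libraries, and in S animal 3 Thrb and Slc16a10 stood level.

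**Figure D3:**
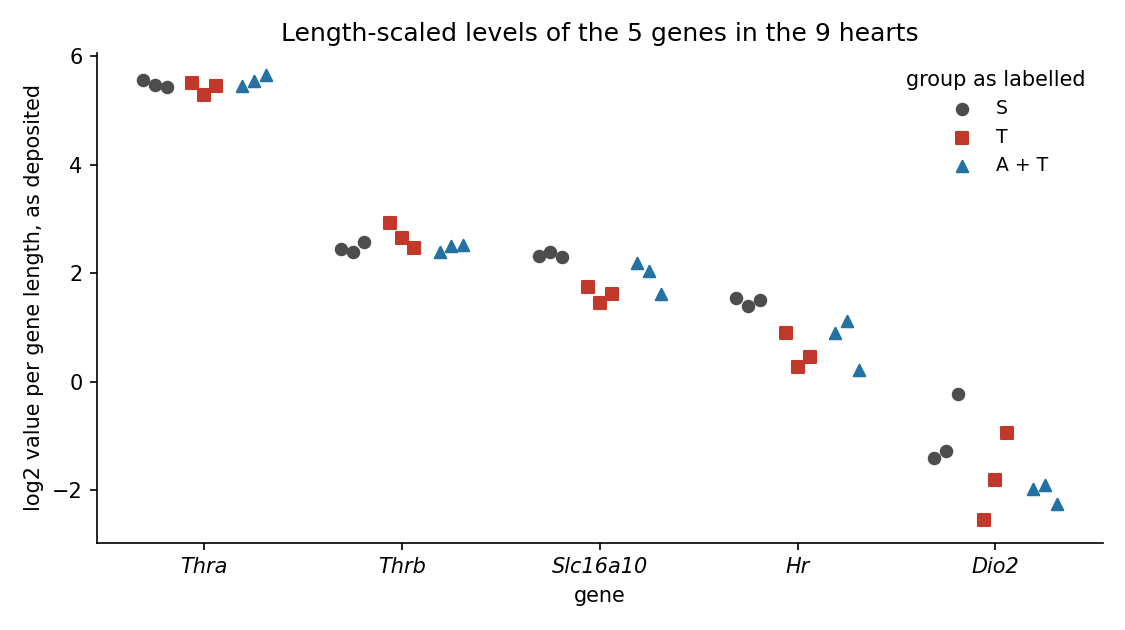
Length-scaled log2 level, as deposited, of the 5 genes in each of the 9 hearts, ordered from the highest to the lowest mean; each point is 1 animal and symbols mark the labelled group. Thra lies near 5.49 in S, Dio2 below 0 in every heart, and the Thrb and Slc16a10 points of S lie side by side.

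The balance of the 2 receptor genes was taken as the length-scaled log2 ratio of Thra to Thrb in each heart. It was 3.11, 3.07 and 2.86 in S animals 2, 3 and 5. In T animals 11, 12 and 15 it was 2.58, 2.63 and 3.00, and in A + T animals 20, 21 and 22 it was 3.07, 3.04 and 3.13. In linear terms Thra was between 5.98-fold and 8.74-fold the level of Thrb on the deposited scale, but between 3.29-fold and 4.82-fold with GENCODE exonic lengths, so the size of this ratio depends on the length used. Differences between groups do not, since the length is the same in every heart. T animals 11 and 12 had the lowest ratios, and T overlapped S but not A + T. The difference was -0.28 in T vs. S (P = 0.2), 0.35 in A + T vs. T (P = 0.1) and 0.07 in A + T vs. S (P = 0.6; two-sided exact permutation tests, n = 3 per group), and 0.1 is the smallest P-value that 3 against 3 allows.

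The 5 genes did not vary as a block from heart to heart. Hr and Slc16a10 were the exception, with a Pearson r of 0.93 over the 9 libraries and 0.86 after the group means were removed (log2 CPM), and A + T animal 22 was the lowest of its group for both. The other 9 pairs had an r between -0.48 and 0.47. These points share library depth and group differences, so r is given as a description. The genes whose pattern was most like that of Slc16a10 among 13182 genes were Lrtm1 (r = 0.99), Asb10 (0.99) and Tmem25 (0.98), and those most like Hr were Zc3h8 (0.99), Letm1 (0.98) and Lrrc20 (0.98). For Dio2 they were Rnf11 (0.96), Zfp191 (0.95) and Mlec (0.94). For Thra they were Man1b1 (0.91), Rps19bp1 (0.90) and Mrps16 (0.89), and for Thrb they were Zfp358, Sgta and Ppp6c (each 0.92).

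Other transporters were read beside Slc16a10. Slc3a2, the heavy chain that brings amino acid carriers to the membrane, rose in the hearts labelled T, from 45.0 ± 1.93 CPM in S to 78.2 ± 8.89 CPM in T (0.80 ± 0.14, adjusted P = 0.00374). Slc7a5, the LAT1 light chain that pairs with it, passed in no comparison, at 6.25, 7.10 and 7.52 CPM in S, 5.02, 6.24 and 5.89 CPM in T, and 4.203, 4.74 and 5.48 CPM in A + T. It gave -0.28 ± 0.16 in T vs. S (adjusted P = 0.233) and -0.53 ± 0.16 in A + T vs. S (adjusted P = 0.0675), with all S values above all others, although the highest T value lay just under the lowest of S. Slc7a8, the LAT2 light chain that also carries iodothyronines, was at 5.19 ± 0.38 CPM in S and 5.34 ± 1.27 CPM in T. In A + T animals 20 and 21 it stood at 14.0 and 12.6 CPM, but in animal 22 at 6.71 CPM, just above the highest T value. A + T vs. T gave 1.04 ± 0.26 (adjusted P = 0.0475) and A + T vs. S gave 1.10 ± 0.26 (adjusted P = 0.0309), and these calls were lost with 8 and 5 of the 9 animals left out one at a time (highest adjusted P = 0.158 without T animal 11 and 0.113 without S animal 3). For the airway libraries, A + T vs. T became 1.29 (adjusted P = 0.00392) without A + T animal 22. It became 1.23 (adjusted P = 0.0593) without T animal 12. Slco1c1, a T4 carrier, failed the filter with 2 to 17 counts per library and was not tested.

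**Figure D4:**
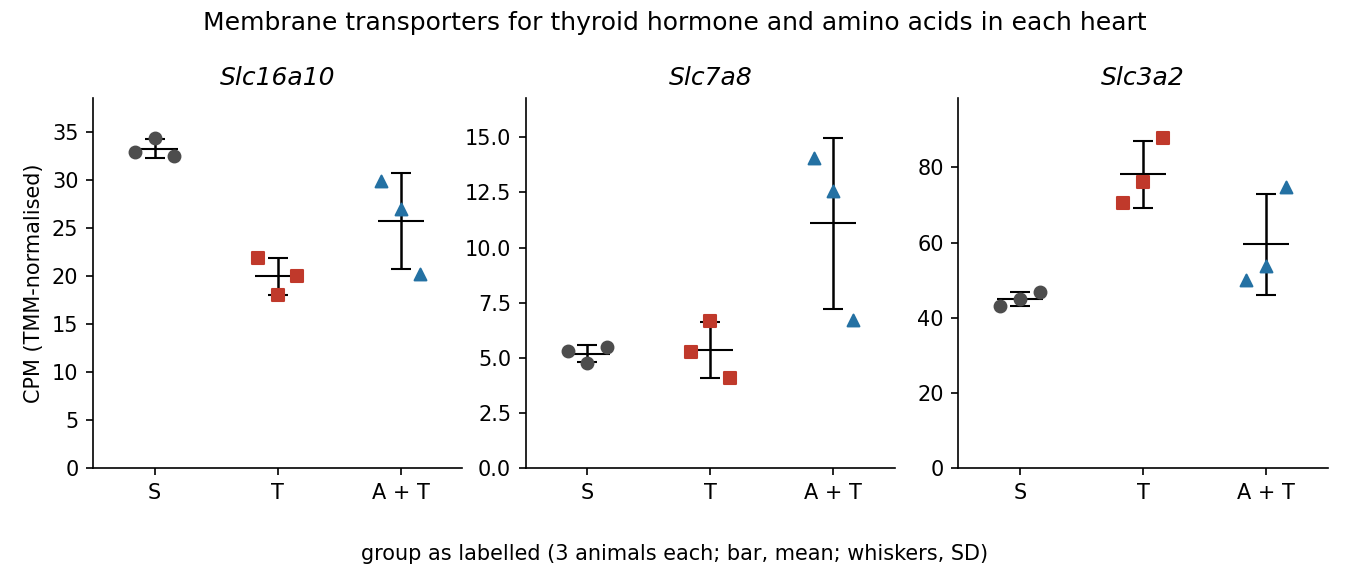
Level in CPM (linear axis from 0) of Slc16a10 and of Slc7a8 and Slc3a2 in every heart by labelled group; points are animals, bars means and whiskers SD (n = 3). The mean of Slc16a10 is lowest in T, that of Slc3a2 is highest there, and Slc7a8 is raised in 2 of the 3 A + T hearts.

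Beyond the 5 genes, 45 genes of the same pathway were listed, of which 41 had counts and 40 were tested. Coverage was thinnest for deiodination and hormone binding, with 2 of 5 genes tested, and for transport, with 3 of 5. These lists too were chosen with earlier results known, so their shares here and below are descriptions. In T vs. S, 6 rose and 4 fell (25% called, near the 21.2% of all genes), with a median log2 fold change of -0.02. In A + T vs. T, 2 rose and 2 fell (10%, against 5.88% of all genes), and in A + T vs. S, 3 rose and 3 fell (15%, against 8.31%). The retinoid X receptor genes, partners of TRα and TRβ, changed little: none of 3 passed in T vs. S, and only Rxrg passed in A + T vs. S (-0.32 ± 0.08, adjusted P = 0.0384), a call lost with 7 of the 9 animals left out one at a time (highest adjusted P = 0.13, without S animal 3). Among 12 coregulators, the coactivator Ncoa1 fell (-0.45 ± 0.09, adjusted P = 0.00809) and the corepressor subunit Tbl1xr1 rose (0.56 ± 0.10, adjusted P = 0.00309) in T vs. S, none passed in A + T vs. T, and Ncoa1 fell in A + T vs. S (-0.40 ± 0.09, adjusted P = 0.0302), a call lost with 5 of the 9 animals left out one at a time (highest adjusted P = 0.122, without S animal 2). The selenocysteine factor Secisbp2, needed to make deiodinases, gave 0.28 ± 0.10 in T vs. S (adjusted P = 0.0771). Dio1 and Dio3 were not analysed here.

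Genes listed as raised by T3, not all of them shown to be so in heart cells, did not move one way. Of 14, 2 rose and 3 fell in T vs. S (35.7% called, against 21.2% of all genes), with a median log2 fold change of -0.03. The pacemaker channel Hcn2 fell from 28.3 ± 1.26 to 15.1 ± 0.50 CPM (-0.91 ± 0.14, adjusted P = 0.00154), the potassium channel Kcnd3 fell (-0.53 ± 0.12, adjusted P = 0.0111) and the lipogenic regulator Thrsp fell (-0.71 ± 0.10, adjusted P = 0.0012). Klf9, which glucocorticoids also induce, rose from 93.3 ± 6.54 to 176.2 ± 37.6 CPM (0.92 ± 0.15, adjusted P = 0.00217). Ucp3, a mitochondrial carrier that fatty acids also induce, rose from 15.4 ± 8.98 to 80.0 ± 33.3 CPM (2.40 ± 0.38, adjusted P = 0.00211). Whether T3 or another signal moved any of these genes, up or down, was not tested. Myh6, whose transcription T3 raises, gave -0.58 ± 0.22 (adjusted P = 0.0833), although its T values were all below those of S. In A + T vs. T, Hcn2 rose (0.64 ± 0.14, adjusted P = 0.027) and the potassium channel Kcna5 fell (-0.72 ± 0.18, adjusted P = 0.0422). These 2 calls were lost with 5 and 7 of the 9 animals left out one at a time, with highest adjusted P-values of 0.109 (without T animal 11) and 0.12 (without T animal 12). Without A + T animal 22, Hcn2 in A + T vs. T became 0.79 (adjusted P = 0.00191), and without T animal 12 it became 0.64 (adjusted P = 0.0662). In A + T vs. S, Ucp3 rose (3.09 ± 0.39, adjusted P = 0.00286), while Thrsp fell (-0.60 ± 0.10, adjusted P = 0.0085).

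Of the 6 genes that T3 is known to lower in heart, 2 rose and none fell in T vs. S (33.3% called, against 21.2% of all genes), and only the call of Myh7 held with each animal left out. Myh7, the slow myosin heavy chain, was at 1535, 1254 and 1292 CPM in S, at 11600, 12798 and 11976 CPM in T, and at 2583, 2251 and 2396 CPM in A + T, so the 3 groups did not overlap. It gave 3.16 ± 0.12 in T vs. S (adjusted P = 7.49e-07), -2.33 ± 0.11 in A + T vs. T (adjusted P = 1.19e-05) and 0.83 ± 0.11 in A + T vs. S (adjusted P = 0.00353). Pln, which encodes the calcium pump inhibitor phospholamban, gave 0.38 ± 0.12 in T vs. S (adjusted P = 0.0415), a call lost with 7 of the 9 animals left out one at a time (highest adjusted P = 0.13, without S animal 2). The other 4 genes of the list passed in no comparison.

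**Figure D5:**
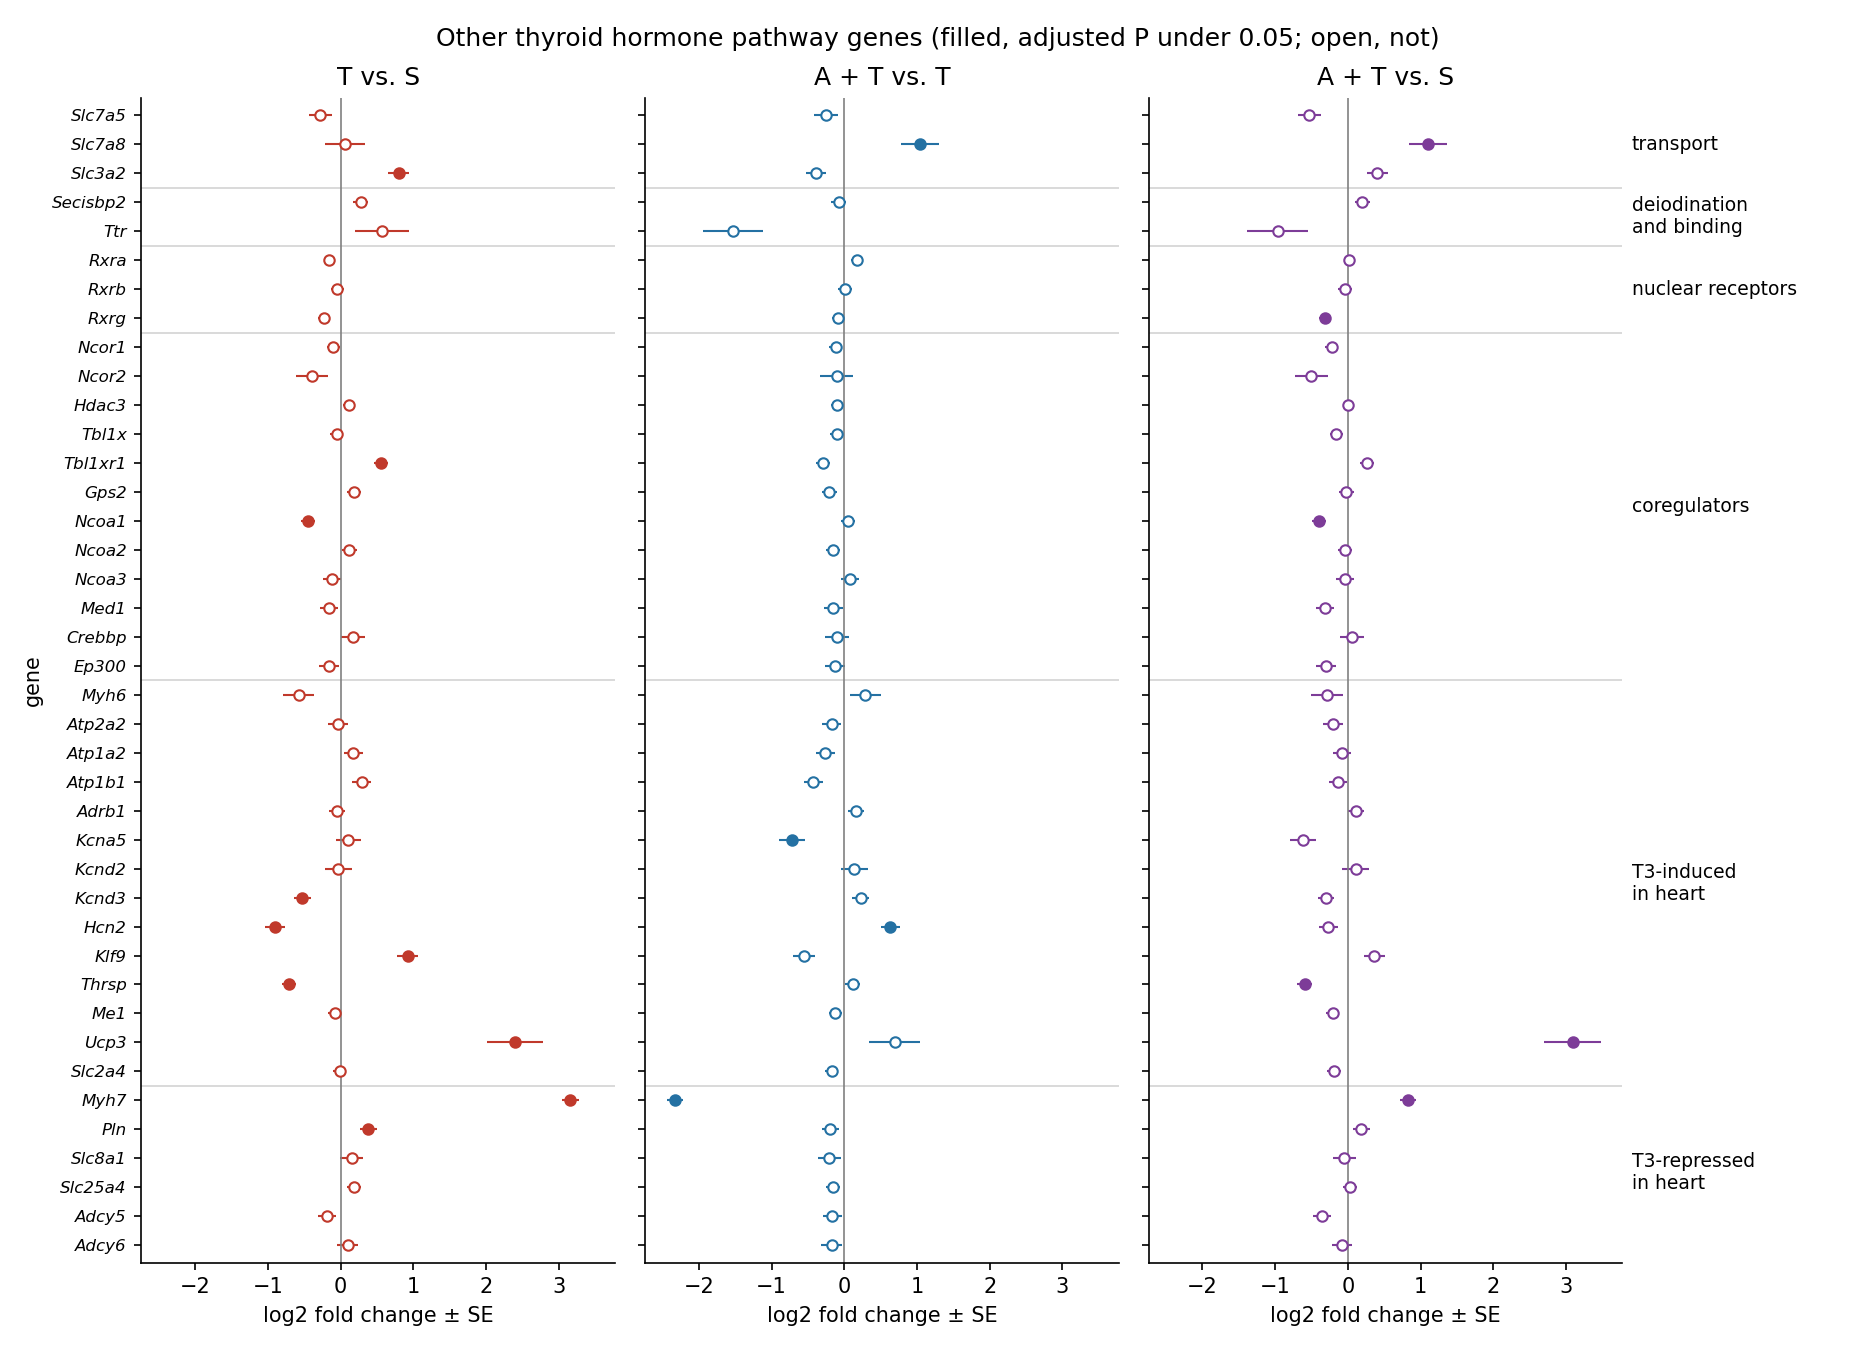
Log2 fold change with SE of the 40 other thyroid hormone pathway genes tested, grouped by role, in 1 panel per comparison; filled symbols have an adjusted P-value under 0.05. Myh7 at 3.16 and Ucp3 at 2.40 stand apart in T vs. S, and in the T3-induced group filled symbols lie on both sides of 0.

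Markers of other heart cells also moved with the labelled groups. The summed level of 4 fibroblast markers was 1052 to 1249 CPM in S, 716 to 845 CPM in T and 849 to 1191 CPM in A + T, and all 4 markers fell in T vs. S. That of 4 endothelial markers was 657 to 770 CPM in S, 388 to 488 CPM in T and 506 to 594 CPM in A + T, and 3 of 4 fell. Of 4 macrophage markers, summing to 102 to 191 CPM over the 9 libraries, none passed in T vs. S and 3 rose in A + T vs. T. Atrial markers summed to 2999 to 3083 CPM in S but to 861 to 4552 CPM in T and 793 to 2054 CPM in A + T. The adipocyte sum (4 of 7 markers counted) was 26.2 to 33.9 CPM in S, 44.0 to 61.7 CPM in T and 31.9 to 38.9 CPM in A + T. The part of these in the fall of Slc16a10 and Hr was not tested, and in whole-heart RNA fewer cells of a type and less RNA per cell cannot be told apart.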

How the data were processed

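Total RNA of 9 mouse hearts was made into strand-specific mRNA libraries and sequenced as paired ends. The authors mapped reads with STAR (mm10) and assigned unique ones to RefSeq genes with featureCounts, and deposited raw counts per gene and library. The authors also deposited log2 values. These differed from log2 CPM by a constant per gene (median SD 0.00258), as scaling by a gene length would give, but the lengths and the tool behind them are not given in the sources used here. The edgeR package is named in the submitters' processing notes without a role. Blank rows (3443) were left out. The library totals, from 12392222 to 19732471 counts, set the precision: 1 count equals 0.0507 to 0.0935 CPM after TMM scaling, covering counting error only. Coordinates come from GENCODE release M21 of GRCm38.

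Groups and animal numbers came from the sample labels. The study's filter, which drops a gene if over 4 of the 9 libraries have it under 0.5 CPM, left 13364 genes. The 3 pairwise comparisons came from 1 quasi-likelihood fit of all 9 libraries (edgeR 4.0.16 in R 4.3.3), with TMM factors and Benjamini-Hochberg adjustment over all genes. The SE is the size of the log2 fold change over the square root of F. A gene was called at an adjusted P-value under 0.05. Replicates differed by more than sampling noise (mean chi-square per gene of at least 7.70). That mean was taken on raw counts, without TMM factors and with Rn45s included, and Rn45s differed widely between some replicates. The steps were tested on simulated data with changes built into T vs. S. There edgeR called 40% of 100 genes changed 1.5-fold and 68% of 100 genes changed 2-fold. Among unchanged genes it made 8 calls, against 24 with DESeq2 and 6 with limma-voom.

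The genes named are the 5 members, a list of other pathway genes (2 of them are not reported here), the 3 genes with the highest Pearson r to each member among genes with a mean of at least 10 counts, Nr1d1, Rn45s and cell type markers. The members and lists were chosen with earlier results of these data known. The alternatives were DESeq2 1.42.0, limma-voom (limma 3.58.1), other scalings and filters, fits of the compared groups alone, the deposited log2 values, an unadjusted P-value under 0.05 with a 1.5-fold change, no Rn45s, and each animal left out. Exonic length from GENCODE, for levels between genes, was added after seeing the data. Figures were drawn with matplotlib 3.10.9.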

Additional observations from a re-analysis of the deposited data

How the results depend on the processing

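Over the alternatives other than leaving out an animal, 414 values stayed the same, 19 became weaker, 5 became stronger, 2 changed sign and 1 moved. With each animal left out, 339 stayed the same, 59 became weaker, 2 became stronger and 5 changed sign. For single genes, the same means that direction and side of the threshold were kept. For counts of genes called it means equal or within 1.5-fold, and for the Thra to Thrb ratio in a comparison only that the direction was kept. Slc16a10 in T vs. S passed in every alternative (log2 fold change -0.81 to -0.67 with animals left out). Of the 5 genes, those called in A + T vs. S were 0 in the fit reported, 1 with DESeq2, 1 with limma-voom and 2 by an unadjusted P-value under 0.05 with a 1.5-fold change. Thrb in A + T vs. S, at -0.0042, became 0.016 with upper-quartile normalisation and 0.0015 without Rn45s. With animals left out, members called ranged from 1 to 2 in T vs. S (Hr lost without S animal 2 or T animal 12) and from 0 to 1 in A + T vs. T (Slc16a10 gained without A + T animal 22), Dio2 in A + T vs. T from -0.74 to 0.10 (without T animal 15), Thrb in A + T vs. S from -0.043 to 0.046, and the Thra to Thrb log2 ratio in A + T vs. S from -0.0059 (without S animal 5) to 0.12. Of the other pathway genes, 10 were called in T vs. S and 6 by the unadjusted rule. In A + T vs. T 4 were called, 2 with library size only, 1 with only the compared groups and 1 to 6 with animals left out (1 without T animal 11 or 12 or A + T animal 20 or 21, and 2 without S animal 3 or 5). In A + T vs. S 6 were called, 3 with library size only and 3 to 7 with animals left out (3 without any 1 S animal or A + T animal 20). The median ratio of Thra to Thrb, 8.24 on the deposited scale, was 4.54 with exonic lengths, chosen after seeing the data. The cause of the other changes was not tested.

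Of all genes, T vs. S called 1371 higher and 1466 lower, and with library size only 585 and 1052. A + T vs. T called 413 and 373, with upper-quartile normalisation 497 and 262, and with library size only 314 and 124. A + T vs. T called 786 in all, 1200 with DESeq2, 217 with only the compared groups and 130 without T animal 11. A + T vs. S called 1110, 555 with library size only and 269 without S animal 2. T vs. S called 2837, 1637 with library size only and 1765 without T animal 11. No paired analysis was possible because the groups share no animal numbers. Counts of Dio2, from 14 to 68 per library, limit what could be detected for it.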
